A study of Homo sapiens with 6 samples.

Results

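The luminal lineage transcription factors described here are the DNA-binding proteins FOXA1, GATA3, SPDEF, TFAP2A, TFAP2B, XBP1, ELF3, EHF, ELF5 and GRHL2, chosen by name as the rows of the count table that carry these symbols. Of the 10 names, 9 had a row among the 33451 of the table, and ELF5 had none and was not analysed here. After culture with 25(OH)D, 4 of the 9 were lower (GATA3, XBP1, FOXA1 and TFAP2A), 4 were higher (ELF3, SPDEF, EHF and GRHL2) and TFAP2B did not pass the test. These are calls by edgeR's quasi-likelihood test at a Benjamini-Hochberg adjusted p under 0.05 over 18183 genes, of which 33.8% were called, 17.3% as higher and 16.5% as lower. GATA3 fell by 42.4%, the largest fall among them, and ELF3 rose by 44.6%, the largest rise.

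The series compared MDA-MB-453, an established human breast cancer cell line, after 5 days with 100 nM 25(OH)D, the vitamin D metabolite that circulates in blood, or with the alcohol solvent alone. Each group had 3 libraries of stranded mRNA-seq, and the solvent cultures served as the control group. The study described its replicates as biological, while the labels only number them, so p-values measure the spread between these 3 and 3 samples of 1 cell line. Both groups came from the same line in the same serum-supplemented medium, and no genetic change is given for either.

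The 6 libraries held between 33268860 and 40928176 counts, and every member with a row had at least 1233 counts in every library. Mitochondrial genes took 7.85% to 7.99% of the control counts and 8.89% to 9.24% of the 25(OH)D counts, and the part of this difference in the results was not tested. The luminal label was checked against keratins and other epithelial markers. KRT8 (247 ± 4.37 RPKM, reads scaled to gene length and to the library total, SD, n = 3 control libraries), KRT18 and KRT19 were abundant. The other luminal markers differed widely in their control means. EPCAM stood at 209 RPKM, KRT7 at 123, ERBB3 at 27.9 and CDH1 at 3.31 RPKM, while MUC1 was scarce at 0.0780 RPKM. The basal keratins KRT5 and KRT14 had no more than 24 counts in any library. The hormone receptors ESR1 and PGR, which define hormone-responsive luminal tumours, had no more than 4 and 8 counts in any library and were not tested.

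Luminal cells line the ducts and alveoli of the breast, and a small set of transcription factors holds them in that state. FOXA1 opens chromatin as a pioneer factor, and GATA3 sustains luminal differentiation beside it. AP-2 factors are shared by luminal and basal lineages, grainyhead factors keep epithelial junctions, and the epithelial ETS factors are expressed in secretory and barrier epithelia. XBP1 is a bZIP factor of the unfolded protein response, whose active form arises when the sensor IRE1 splices its mRNA.

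For called members, stretches upstream of a RefSeq start (GRCh38.p14) are printed 5′ to 3′ on each gene's own strand. Bases that lie in exons of the gene in the count table are left out. The RefSeq start used was the one nearest to the start of the gene in that table. It lay 810 bases from that gene start for FOXA1 and 3164 bases from it for EHF. ELF3 had no base outside its exons and GRHL2 had no RefSeq entry, so neither is printed. Capitals mark matches on either strand to one of 10 short motifs. The first set holds the 4 members that fell. FOXA1 is on the minus strand at chr14:37595349-37595499, inside an intron of the gene as counted. GATA3 is on the plus strand at chr10:8053391-8053603, where the first exon of the divergent non-coding gene GATA3-AS1 overlaps it in GENCODE 29. TFAP2A is on the minus strand at chr6:10419660-10419909, directly upstream of the gene. XBP1 is on the minus strand at chr22:28800598-28800819, also upstream, with an exon of the non-coding gene Z93930.2 on the other strand.
GATA3: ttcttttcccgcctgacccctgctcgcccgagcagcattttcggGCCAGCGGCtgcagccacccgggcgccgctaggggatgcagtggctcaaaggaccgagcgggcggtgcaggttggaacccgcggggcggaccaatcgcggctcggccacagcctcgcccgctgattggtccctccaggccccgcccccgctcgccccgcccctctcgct
XBP1: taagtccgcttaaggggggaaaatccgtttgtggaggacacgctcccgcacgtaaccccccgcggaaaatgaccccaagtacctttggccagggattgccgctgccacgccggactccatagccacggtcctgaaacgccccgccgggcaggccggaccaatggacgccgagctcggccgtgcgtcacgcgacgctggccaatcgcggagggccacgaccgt
FOXA1: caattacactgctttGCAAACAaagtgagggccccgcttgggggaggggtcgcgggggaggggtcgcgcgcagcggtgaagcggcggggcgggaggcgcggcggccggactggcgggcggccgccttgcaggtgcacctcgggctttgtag
TFAP2A: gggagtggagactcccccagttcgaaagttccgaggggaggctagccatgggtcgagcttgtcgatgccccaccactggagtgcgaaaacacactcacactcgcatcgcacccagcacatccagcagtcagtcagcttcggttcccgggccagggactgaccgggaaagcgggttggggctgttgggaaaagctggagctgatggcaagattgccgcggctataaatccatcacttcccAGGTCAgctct

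The second set holds 2 members that rose. SPDEF is on the minus strand at chr6:34556334-34556579, upstream of the gene. EHF is on the plus strand at chr11:34624007-34624256, inside an intron of the gene as counted.
SPDEF: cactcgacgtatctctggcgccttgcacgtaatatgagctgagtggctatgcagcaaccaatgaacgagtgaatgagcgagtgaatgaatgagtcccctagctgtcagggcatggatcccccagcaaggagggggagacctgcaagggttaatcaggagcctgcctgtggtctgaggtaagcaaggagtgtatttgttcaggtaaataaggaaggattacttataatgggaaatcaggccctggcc
EHF: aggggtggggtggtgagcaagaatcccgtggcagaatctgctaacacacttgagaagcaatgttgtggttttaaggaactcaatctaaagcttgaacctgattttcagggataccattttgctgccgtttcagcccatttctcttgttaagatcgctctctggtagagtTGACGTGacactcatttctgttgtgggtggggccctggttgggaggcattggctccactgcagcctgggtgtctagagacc

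The search covered the 250 bases before each start on both strands, for 35116 RefSeq promoters. FOXA1 held the forkhead letters TGTTTGC, present in 3.23% of all promoters, with the match beginning 235 bases before its start. GATA3 held the AP-2 letters GCCNNNGGC, present in 19.8%, and TFAP2A held the nuclear receptor half-site AGGTCA, present in 12.1%, at 11 bases before its start. EHF held TGACGTG, the core of the element that XBP1 can bind, which 1.68% of promoters hold. XBP1, SPDEF, TFAP2B and ELF3 held none of the 10 motifs. All 250 bases of the ELF3 window and 148 of the TFAP2B window lie in exons of the gene as counted. The direct repeat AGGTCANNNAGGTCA, a form of the vitamin D response element, was in 2 of the 35116 promoters (0.0057%) and in none of the 8 member windows searched. GRHL2 had no RefSeq promoter entry and ELF5 had no row in the count table, so neither was searched. The other letters searched were AGATAA and TGATAA for GATA factors, TGTTTAC for forkhead factors, and CCGGAAG and CAGGAAG for ETS factors, and none of the 8 windows held them. AGGTCA is contained in the direct repeat. A match describes letters in this window and is not evidence of binding.

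GATA3 is a zinc-finger factor of the luminal lineage, on chromosome 10 at 8053604 to 8075198 of GRCh38 in the count table. Its level was 264, 263 and 258 CPM (counts scaled to a common library size, with TMM factors) in the 3 control libraries and 154, 151 and 147 CPM in the 25(OH)D libraries. Every 25(OH)D library lay far below every control library. Averaged over 3 libraries and given with the SD, the level went from 262 ± 3.54 CPM down to 151 ± 3.68 CPM, a log2 fold change of -0.80 (SE 0.0380) with an adjusted p of 8.56e-10 in edgeR's quasi-likelihood test. Of the 9 members, GATA3 had the change furthest from 0, and 89.4% of all genes tested had a smaller absolute log2 fold change.

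XBP1 (chromosome 22, 28794555 to 28800597) was the most abundant member by a wide margin. It read 8069.9, 7965 and 7806 CPM in the control group and 5419.65, 5505 and 5311 CPM with 25(OH)D. The groups did not overlap, and the spread within each was small against the gap. XBP1 took 0.788% to 0.821% of all counts in the control libraries, where it was the 5th most abundant row, and 0.520% to 0.546% in the 25(OH)D libraries, where it was the 9th. Its log2 fold change was -0.55 (SE 0.0285, adjusted p of 1.98e-09 by edgeR), so that it fell by 31.9%. Gene counts do not separate the spliced from the unspliced form of this mRNA.

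FOXA1 (chromosome 14, 37589984 to 37596059) had 120.2, 112 and 116 CPM in the control group. With 25(OH)D it had 77.5, 87.8 and 88.4 CPM. The first 25(OH)D library was the lowest, and all 3 stayed below the lowest control library. The log2 fold change was -0.46 (SE 0.0551, adjusted p of 1.51e-05 by edgeR), and FOXA1 fell by 27.2%. Without that library it was -0.39. TTC6, a neighbour on the opposite strand that shares 16 exon bases with FOXA1 (0.402% of the FOXA1 exon bases), was also lower (log2 fold change -0.52). Reads on these shared bases can be told apart only if the counting used strand, which the sources used here do not give.

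The AP-2 members differed from each other. TFAP2A (chromosome 6, 10393186 to 10419659) had 119, 116 and 124 CPM in the control group and 98.7, 104 and 101 CPM with 25(OH)D. The groups were separate, though by less than for GATA3. Its log2 fold change was -0.24 (SE 0.0442, adjusted p of 6.26e-04 by edgeR). TFAP2A-AS1, whose exons cover 438 bases (5.31%) of the TFAP2A exons on the opposite strand, had a log2 fold change of -0.24 that did not pass the test (adjusted p of 0.124, edgeR). TFAP2B (chromosome 6, 50818723 to 50847613) had 245, 249.7 and 239 CPM in the control group and 242, 242 and 245 CPM with 25(OH)D. On this scale the 25(OH)D values fell inside the control range. On the deposited RPKM scale, which has no TMM factors, the groups were separate, at 39.3 to 41.3 RPKM in the control group and 38.6 to 39.1 RPKM with 25(OH)D. The log2 fold change of TFAP2B was -0.01 with an approximate 95% interval from -0.08 to 0.06 (adjusted p of 0.853, edgeR).

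The epithelial ETS members ELF3, SPDEF and EHF were all higher with 25(OH)D. ELF3 (chromosome 1, 202007945 to 202017188), a factor of secretory and barrier epithelia, had 33.1, 33.0 and 33.5 CPM in the control group. It had 47.1, 50.1 and 46.9 CPM with 25(OH)D. The control libraries were nearly identical, and all treated libraries lay well above them. ELF3 had the largest rise among the members, with a log2 fold change of 0.53 (SE 0.0559, adjusted p of 3.83e-06 by edgeR). A row on the same strand, RP11-510N19.5, covers 9.23% of the ELF3 exon bases and rose likewise (log2 fold change 0.48), and RP11-465N4.4 on the other strand covers 7.70% (log2 fold change 0.40, adjusted p of 0.0855, edgeR). How reads of these stretches were assigned is not known, so the ELF3 value carries that uncertainty.

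SPDEF (chromosome 6, 34537802 to 34556333), a factor of secretory cells, had 83.9, 76.5 and 76.2 CPM in the control group and 103, 107 and 103 CPM with 25(OH)D. The first control library was the highest of its group and still below every treated library. Its log2 fold change was 0.40 (SE 0.0499, adjusted p of 2.05e-05 by edgeR). EHF (chromosome 11, 34621093 to 34661057), which is closely related to ELF3, had 309.7, 303 and 295 CPM in the control group. With 25(OH)D it had 386, 394 and 378 CPM. The groups were again separate. EHF rose by a log2 fold change of 0.35 (SE 0.0367, adjusted p of 3.55e-06 by edgeR), or 27.6%.

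GRHL2, the grainyhead factor on chromosome 8 that sustains epithelial junction genes, had 133, 133 and 129.6 CPM in the control group and 145, 147 and 140.2 CPM with 25(OH)D. The groups did not overlap, but the gap was small. The log2 fold change was 0.13 (SE 0.0403, adjusted p of 0.0239 by edgeR). This call was lost under 8 of 14 alternative settings, with adjusted p up to 0.134 in limma on log2(RPKM + 0.1). It did not pass without control replicate 2, control replicate 3, 25(OH)D replicate 1 or 25(OH)D replicate 2, at adjusted p of 0.0551, 0.0595, 0.0641 and 0.0869 by edgeR. KB-1562D12.1, on the opposite strand, shares 50 exon bases with GRHL2 and had a log2 fold change of 0.42.

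**Figure D1:**
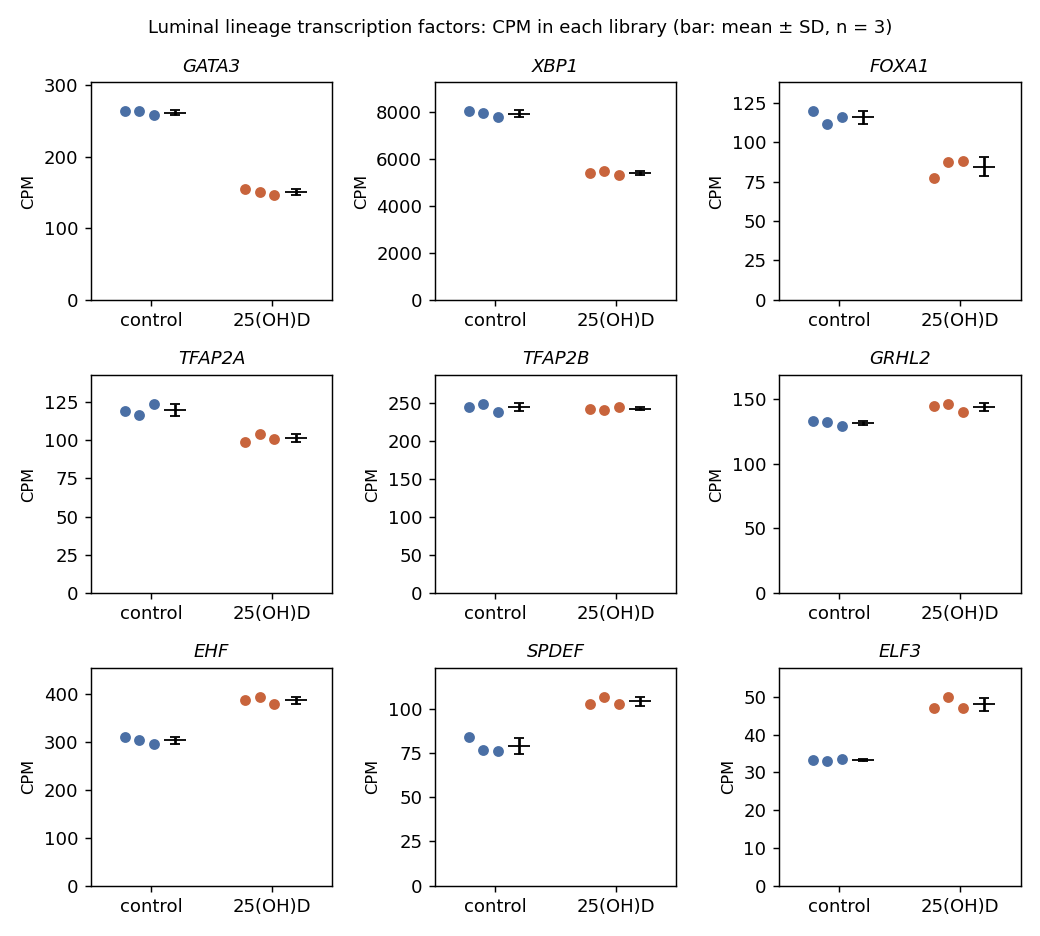
CPM (vertical axes, starting at 0) of each member in the 3 control and 3 25(OH)D libraries, with points for libraries and bars for the mean ± SD (n = 3). The groups are separate in 8 of the 9 panels, with lower 25(OH)D levels for GATA3, XBP1, FOXA1 and TFAP2A and overlapping levels for TFAP2B.

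On the CPM scale the groups did not overlap for 8 of the 9 members, against 45.7% of all genes tested. Genes counted more deeply have a smaller sampling error and were called more often. Among the 4392 genes at least as abundant as ELF3, the least abundant member, 55.8% were called at the same threshold and 65.0% had groups that did not overlap. The median absolute log2 fold change was 0.40 over the 9 members, 0.23 over all genes tested and 0.16 over the abundant genes. The study's own limits asked for a log2 fold change beyond 1 in either direction at an unadjusted p under 0.05. No member passed them (0 of 9), against 6.65% of all genes (4.02% higher, 2.63% lower) and 2.94% of the abundant genes (2.39% higher, 0.546% lower). These shares come from the fit used here, which passed more genes in each direction than the study reported. The median log2 fold change of the members was -0.01, as many having risen as fallen, and that of all genes was also -0.01. In bulk RNA, fewer cells that express a gene and less RNA per cell cannot be told apart.

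**Figure D2:**
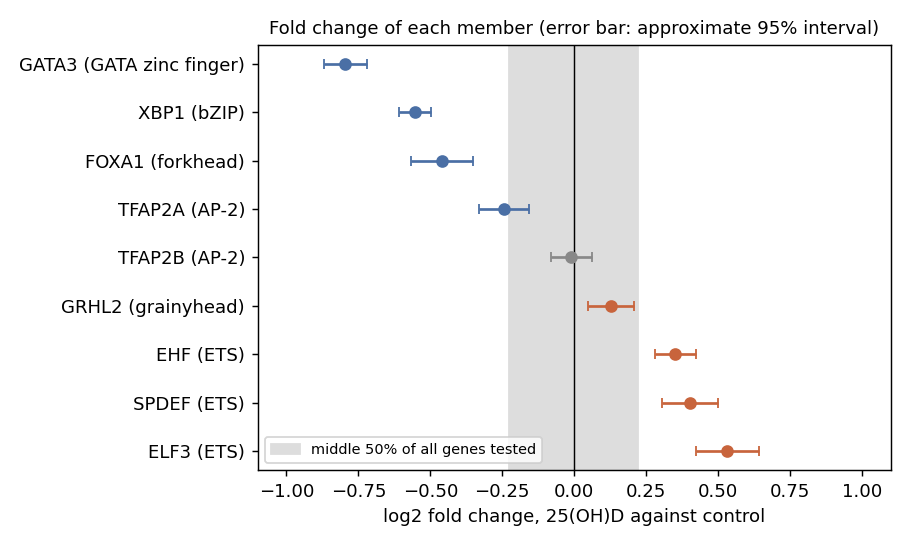
Log2 fold change of 25(OH)D against control for each member (horizontal axis), with approximate 95% intervals from the standard error, and the grey band marking the middle 50% of all genes tested (-0.23 to 0.22). GATA3 lies furthest to the left at -0.80 and ELF3 furthest to the right at 0.53, while TFAP2B and GRHL2 lie inside the band.

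Levels per gene length were compared on the RPKM scale. In the control group XBP1 stood at 2663 ± 56.1 RPKM, followed by GATA3 at 81.6 ± 1.48, EHF at 70.0 ± 2.05 and SPDEF at 41.8 ± 2.43 RPKM (SD, n = 3). TFAP2B came next at 40.4 ± 1.03 RPKM, and its libraries overlapped those of SPDEF, the only neighbours in the order that did. FOXA1 was at 29.6 ± 1.06, GRHL2 at 22.1 ± 0.412, TFAP2A at 14.7 ± 0.419 and ELF3 at 4.68 ± 0.0183 RPKM. With 25(OH)D the order changed. GATA3, at 45.6 ± 1.20 RPKM, passed from just below XBP1 to a place below EHF (86.6 ± 2.34) and SPDEF (53.6 ± 1.59). GRHL2 (23.4 ± 0.678) stood above FOXA1 (20.9 ± 1.57 RPKM), the reverse of the control order, and no neighbours overlapped in the 25(OH)D group.

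**Figure D3:**
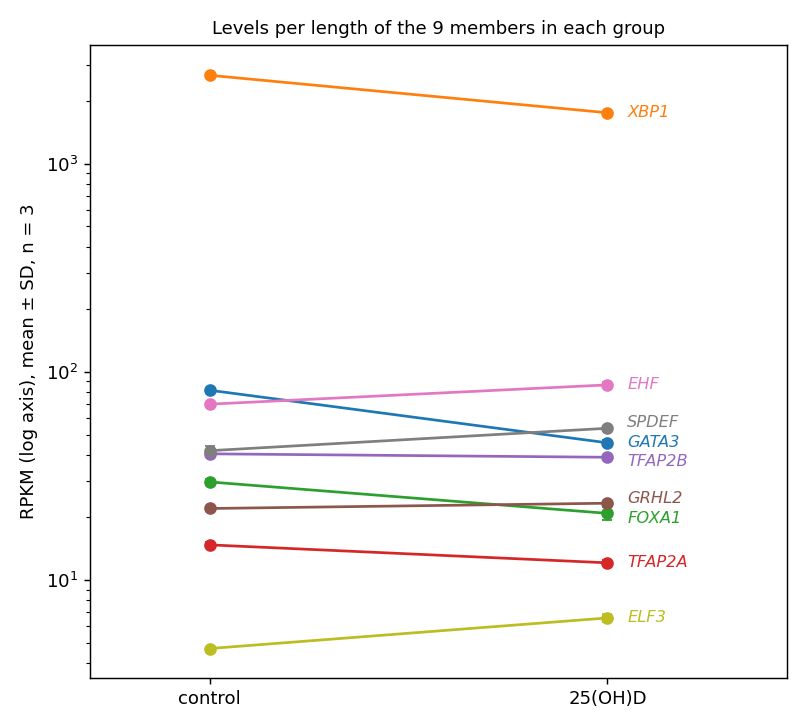
RPKM (logarithmic vertical axis) of the 9 members in the control and 25(OH)D groups, with points for the mean and bars for the SD (n = 3). The line of GATA3 crosses those of EHF and SPDEF, the line of FOXA1 crosses that of GRHL2, and XBP1 stays far above the rest.

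Ratios between members within a library do not depend on scaling between libraries. GATA3 was present at 17.6, 17.7 and 17.0 times the RPKM of ELF3 in the control libraries and at 7.25, 6.67 and 6.93 times with 25(OH)D. The ratio of GATA3 to SPDEF was 1.85, 2.02 and 1.99 in the control group and 0.882, 0.830 and 0.842 with 25(OH)D, so SPDEF was the more abundant of the pair in every treated library. The ratio of FOXA1 to EHF went from 0.423 ± 0.0148 to 0.241 ± 0.0185 (SD, n = 3). GATA3 fell relative to FOXA1 as well, from 2.76 ± 0.104 to 2.19 ± 0.216. These ratios were chosen with the fold changes known and are given without a test.

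Within the AP-2 family, TFAP2A made up 21.7%, 21.3% and 23.3% of the summed RPKM of TFAP2A, TFAP2B and TFAP2C in the control libraries and 19.0%, 19.5% and 18.3% with 25(OH)D. The shares of the groups were separate. The difference of -3.17 percentage points had a two-sided exact permutation p of 0.1, the smallest that 3 against 3 libraries can give, and a Benjamini-Hochberg value of 0.2 over the 8 shares and sums compared. TFAP2B kept the largest share, 60.5% ± 0.731 and 60.9% ± 1.57 (exact permutation p of 0.7, n = 3). TFAP2C, the third paralog of the sum, went from 17.4% ± 1.01 to 20.1% ± 1.99 (exact permutation p of 0.1, n = 3), while its own log2 fold change of 0.19 did not pass the test (adjusted p of 0.107, edgeR). TFAP2C did pass without 25(OH)D replicate 1 (0.28, adjusted p of 0.0286, edgeR) and without the low-count filter (0.0320).

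Among the epithelial ETS members the summed RPKM rose from 116 ± 4.31 to 147 ± 4.15 (SD, n = 3, two-sided exact permutation p of 0.1). EHF contributed 60.1% ± 0.750 of the sum in the control group and 59.0% ± 0.271 with 25(OH)D, and SPDEF 35.9% ± 0.852 and 36.5% ± 0.216. ELF3 contributed 4.03% ± 0.151 and 4.48% ± 0.0763. For ELF3 the groups were separate (exact permutation p of 0.1, n = 3), and for EHF and SPDEF the p was 0.2 and 0.4.

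The paralogs of the members were measured for the other genes of each family. Of 39 paralogs, 25 were tested, with 3 higher and 4 lower (28.0% called, against 33.8% of all genes). The ETS factor ETS2 rose from 1.04 ± 0.260 to 4.46 ± 0.508 RPKM, a log2 fold change of 2.15, and the ETS repressor ETV6 rose by 1.06. GRHL1 of the grainyhead family rose by 0.15 (adjusted p of 0.0247, edgeR), whereas GRHL3 fell by 0.91 on the log2 scale. GATA6 (-0.79), ETV5 (-0.69) and ELF2 (-0.18, adjusted p of 0.0469 by edgeR) were also lower. GRHL1 and ELF2 lost their calls under 8 and 10 of the 14 alternatives, 4 of them for each gene by leaving out a library, at adjusted p of up to 0.0781 and 0.191 by edgeR. GATA6 lost its call without control replicate 1 (adjusted p of 0.0567, edgeR).

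Cofactors and regulators of the members changed in both directions, with 5 higher and 4 lower of 14 tested (64.3% called, against 33.8% of all genes and 55.8% of the abundant genes). TRPS1, a GATA-type zinc-finger repressor, fell from 29.6 ± 1.14 to 17.4 ± 0.368 RPKM (log2 fold change -0.72, SE 0.0401). The corepressor TLE1 fell by 1.25 and KCTD15, an inhibitor of AP-2 factors, by 1.08 on the log2 scale, while its paralog KCTD1 rose by 0.49. ZFPM2, a partner of GATA factors, was lower at no more than 32 counts in any library, and lost its call in 5 of the 14 alternatives. These were both limma fits and the edgeR fits without control replicate 1 or 2 or 25(OH)D replicate 1 (adjusted p of 0.0788, 0.0784 and 0.0828). LMO4 rose by 0.51, CITED2 by 0.36, ERN1, which encodes IRE1, by 0.35 and ATF6, the parallel sensor of the unfolded protein response, by 0.29.

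Among genes of luminal identity, 11 were higher and 6 lower of 22 tested (77.3% called, against 33.8% of all genes and 55.8% of the abundant genes). KRT7 rose from 123 ± 3.60 to 219 ± 4.86 RPKM. The prolactin receptor PRLR rose by 1.42 on the log2 scale. KRT19 fell by 0.41, TOX3 by 0.83 and STC2 by 1.82. The median log2 fold change of the list was 0.03, and it lay between -0.06 and 0.04 over the alternatives.

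Epithelial junction and splicing genes, a group that grainyhead factors are known to sustain, held more rises than falls. Of 20 tested, 11 rose and 1 fell (60.0% called, against 33.8% of all genes and 55.8% of the abundant genes), and the median log2 fold change was 0.27. The claudins CLDN4 and CLDN7 rose by 1.25 and 0.90, the protease inhibitor SPINT2 rose by 0.64, and OVOL2, a repressor of mesenchymal genes, fell by 0.30. EPCAM (0.07), ESRP1 (-0.11) and ESRP2 (-0.09) did not pass the test under TMM. The number higher lay between 8 and 12 over the alternatives, with 8 in both limma fits. The number lower was 3 with upper-quartile factors, with library sizes alone and in both limma fits.

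Secretory genes of the kind SPDEF is known to activate in goblet cells held 1 higher and 5 lower gene among 10 tested (60.0% called, against 33.8% of all genes and 55.8% of the abundant genes). MUC2 had 357, 315 and 277 counts in the control group and 7, 8 and 12 with 25(OH)D. MUC5B had 267, 245 and 215 counts and 12, 4 and 15. MUC5AC had 78, 60 and 46 counts and 4, 2 and 8. These 3 gel-forming mucins of the list were called lower in the same comparison in which SPDEF was called higher. SYTL2 fell by 0.79 and CREB3L1 by 0.29, PDIA5 rose by 0.28, and AGR2 had a log2 fold change of -0.09 (adjusted p of 0.172, edgeR).

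Among target genes of spliced XBP1, none was called lower, while XBP1 itself was. Of 18 tested, 6 were higher and 0 lower by edgeR. That is 33.3% called, against 33.8% of all genes (17.3% higher, 16.5% lower) and 55.8% of the abundant genes. In each of the 14 alternatives 0 were lower, and the median log2 fold change was 0.10. EDEM1, which directs misfolded proteins to degradation, rose from 6.50 ± 0.270 to 12.3 ± 0.572 RPKM. DNAJC3 rose by 0.53 and SEC24D by 0.30. SEC24D missed the threshold in limma on log2(RPKM + 1) and on log2(RPKM + 0.1), at adjusted p of 0.0840 and 0.0832. The number higher was 3 with upper-quartile factors and 2 in both limma fits.

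**Figure D4:**
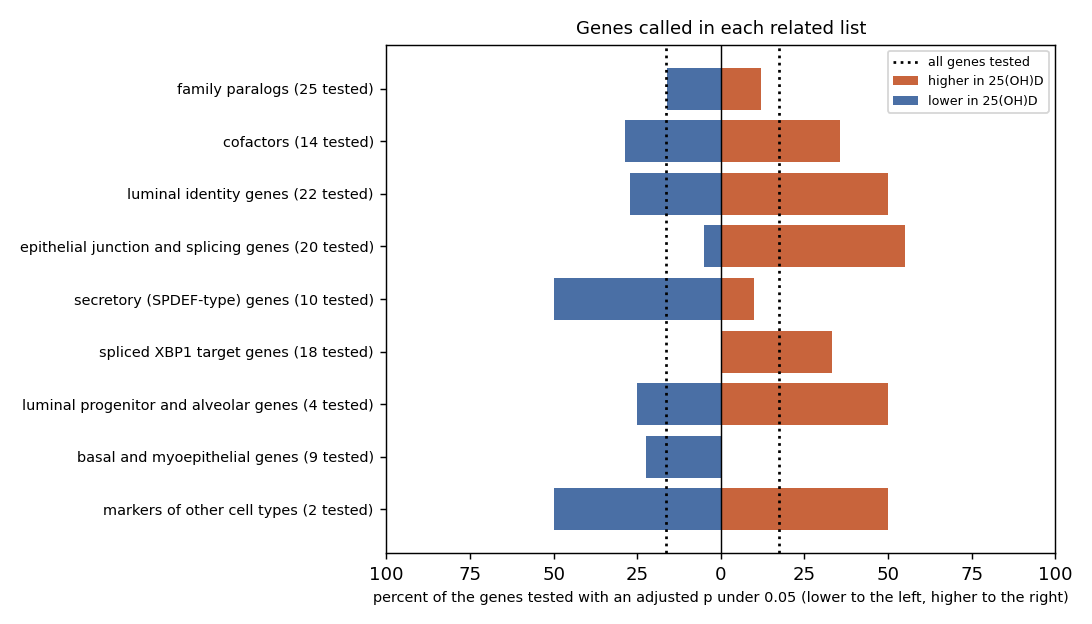
Percent of the tested genes of each related list with an adjusted p under 0.05, higher to the right and lower to the left, with dotted lines at 17.3% and 16.5% of all genes tested. Epithelial junction genes extend further to the right (11 of 20) than to the left (1 of 20), secretory genes further to the left (5 of 10) than to the right (1 of 10), and 2 lists rest on only 4 and 2 tested genes.

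Few genes of the luminal progenitor and alveolar list could be tested. Of the 4 that were, PRLR and SLPI were higher and STAT5B was lower, against 33.8% of all genes called in either direction. PRLR is also on the luminal identity list and is counted in both. STAT5B had no more than 102 counts in any library. The STAT5B call was lost without control replicate 2 or 3 and without 25(OH)D replicate 2 or 3, at adjusted p of 0.0588, 0.106, 0.0837 and 0.0513 by edgeR. Basal and myoepithelial genes were scarce, with a summed level of 2.47 to 3.15 RPKM over the list in the control libraries and 2.45 to 2.98 RPKM with 25(OH)D. Of 9 tested, 2 were lower (22.2% called, against 33.8% of all genes). TP63, the basal lineage factor, had 12, 26 and 19 counts in the control group and 3, 2 and 2 with 25(OH)D, and SOX10 had 17, 14 and 13 and 2, 5 and 2. SOX10 missed the threshold without 25(OH)D replicate 1 (adjusted p of 0.0521, edgeR). Among 12 markers of fibroblasts, endothelium and immune cells, 10 had a row, 8 of these had no more than 16 counts in any library, and CD3E and LUM were at 0 in most libraries. CD68, a lysosomal gene, rose by 1.69 and COL1A1 fell by 0.18 on the log2 scale, and they were the only 2 genes of the list tested. Both were called, against 33.8% of all genes. The summed level of the list was 5.93 to 6.65 RPKM in the control group and 9.26 to 12.2 RPKM with 25(OH)D. CD68 alone went from a mean of 2.29 to 7.14 RPKM, and the COL1A1 call was lost in 7 of the 14 alternatives. The part of these genes in the members' changes was not tested.

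**Figure D5:**
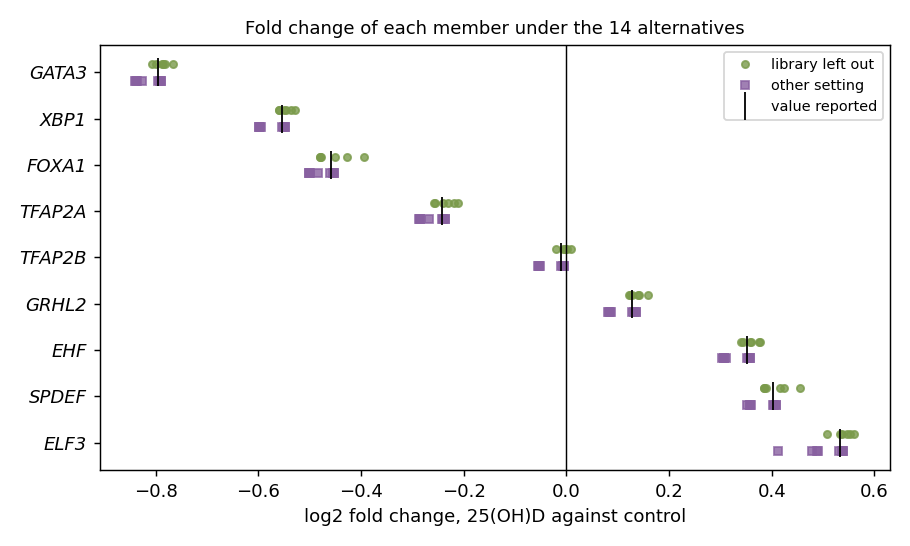
Log2 fold change of each member (horizontal axis) under the 14 alternatives, with circles for fits that leave out 1 library, squares for other settings and a vertical line for the value reported. GATA3, XBP1, FOXA1 and TFAP2A stay below 0 and ELF3, SPDEF, EHF and GRHL2 above 0 in all 14, while TFAP2B lies on both sides of 0.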

How the data were processed

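The 3 control and 3 25(OH)D libraries were grouped by the sample labels. The authors deposited raw counts per gene and RPKM values, and each RPKM equals the count divided by the gene length and library total. The submitters' processing notes name Trimmomatic 0.36, featureCounts, Subread 1.5.1, edgeR 3.12.1 and GRCh38, and the aligner, annotation release and strand setting are not given in the sources used here. Counts were tested in R 4.3.3 with edgeR 4.0.16 (TMM, low-count filter with a minimum count of 10, quasi-likelihood test, no covariates), with Benjamini-Hochberg adjustment over 18183 genes. CPM used the totals of the genes tested (33242605 to 40895724 counts per library) scaled by TMM. The script was tested on simulated data. Alternatives used DESeq2 1.42.0, limma 3.58.1, other scaling, no filter, a replicate block and the omission of each library.

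The members and gene lists were chosen with earlier results of these data known. The rule named the members, TFAP2C, overlapping genes, a few defining markers and, per list, up to 3 called genes in each direction by smallest p. CITED2, ATF6, ZFPM2, ELF2, MUC5AC, CREB3L1, AGR2, EPCAM, ESRP1, ESRP2, KRT8, KRT18, ERBB3, CDH1 and MUC1 were named after their values were seen, as were the reference of abundant genes and the alternatives for the lists. Some genes under this rule are left out of the text. Promoters came from RefSeq and gene models from GENCODE 29, whose start and end match the table for 8 of the 9 members and not for GATA3.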

Additional observations from a re-analysis of the deposited data

How the results depend on the processing

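The 14 alternatives changed the scaling, filter, test, unit, replicate block or libraries used. GATA3, XBP1, FOXA1, TFAP2A, ELF3, SPDEF and EHF kept their direction and call in all 14. Leaving out each library in turn gave log2 fold changes of -0.81 to -0.77 for GATA3, -0.56 to -0.53 for XBP1, -0.48 to -0.39 for FOXA1, -0.26 to -0.21 for TFAP2A, 0.34 to 0.38 for EHF, 0.38 to 0.46 for SPDEF and 0.51 to 0.56 for ELF3. GRHL2 ranged from 0.12 to 0.16 and missed the threshold for 4 of the 6 omissions. It also missed it with upper-quartile factors (0.0869, adjusted p of 0.123 by edgeR), library sizes alone (0.0843, 0.134), limma on log2(RPKM + 1) (0.0806, 0.130) and log2(RPKM + 0.1) (0.0837, 0.134). These scalings moved the median of all genes by up to -0.04. TFAP2B was not called in any of the 14. It was between -0.0549 and -0.00441 in the 8 settings that keep every library, ranged from -0.0198 to 0.00934 when a library was left out, and turned positive without control replicate 2 (0.00934) and without 25(OH)D replicate 2 (3.98e-04). The ELF3 share of the ETS sum differed by 0.906 percentage points with counts in place of RPKM, against 0.451. Genes past the fold limit numbered 731 higher and 478 lower, 753 lower without a filter, 243 higher and 70 lower in limma on log2(RPKM + 1), and 317 lower on log2(RPKM + 0.1). The cause was not tested. With the replicate number as a block, 3057 genes were higher and 2896 lower, against 3138 and 3004, and no member changed its call. Same-numbered libraries share only a number: their deviations from the group means correlated at -0.0721, -0.012 and -0.046, and no library correlated best with its own number. Depth limits the mucin, TP63, SOX10 and ZFPM2 values, which rest on few counts.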

Other observations

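ST14, the epithelial protease matriptase, had 2692, 2982 and 7668 counts in the 25(OH)D libraries and 4138, 2130 and 2261 in the control libraries. Relative to the mean CPM its SD was 70.4% with 25(OH)D and 32.5% in the control group, wider than for any member. Among members the highest was 7.28%, for FOXA1 with 25(OH)D. The log2 fold change of ST14, 0.84, did not pass the test (adjusted p of 0.0735, edgeR). MYB, a factor of luminal cells, had 4076, 4701 and 5521 counts with 25(OH)D against 2656, 2059 and 1823 in the control group (log2 fold change 1.28). TFF1, a secreted luminal peptide, had 40, 48 and 44 counts in the control group and 10, 2 and 0 with 25(OH)D. These genes were picked after their values were seen.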
